A study of Mus musculus with 5 samples.

Results

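Oxidative phosphorylation subunits were examined as a group of 100 genes among the 78334 genes counted in RNA labelled as mouse visceral fat. The members were the genes whose symbols name a subunit of complexes I to V of the inner mitochondrial membrane, and 87 of them lie in the nuclear genome and 13 in the mitochondrial genome. The nuclear members comprised 36 of complex I (the Nduf genes), 4 of complex II (Sdha to Sdhd), 10 of complex III (the Uqcr genes), 19 of complex IV (the Cox genes) and 18 of complex V, the ATP synthase (the Atp5 genes). The mitochondrial members comprised 7 of complex I, 1 of complex III, 3 of complex IV and 2 of complex V. Of the 100 members, 3 are annotated as pseudogenes (Uqcrh-ps1, Uqcrh-ps2 and Cox6c2), 2 had no count in any library (Uqcrh-ps2 and a second identifier of Atp5o), and the other 98 passed the filter on low counts and were tested. The table of symbols holds older names for the ATP synthase, so the inhibitor of the enzyme, listed as Atpif1, and a membrane subunit listed as Usmg5 fall outside the symbols used, as do Ndufab1 and Cyc1, which encode subunits of complexes I and III.

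The mice were male C57BL/6 animals. The single control library came from a mouse on standard chow with vehicle. In this group and in the untreated diabetic group, vehicle was given for 28 days from 11 weeks of age. The 2 libraries named diabetes had received streptozotocin, a toxin of insulin-producing beta cells, at 70 mg/kg by injection into the abdomen at 2 days of age, then high-fat food (60% of energy) for 8 weeks from 3 weeks of age, and vehicle. The 2 curcumin-treated libraries had the same streptozotocin and diet, plus curcumin, the yellow polyphenol of turmeric, at 50 mg/kg by gavage each day for 28 days from 11 weeks of age. Whether replicate libraries stem from different mice is not labelled, so each p-value reflects library-to-library spread that can be technical.

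Complexes I, III and IV pass electrons from NADH to oxygen and pump protons, complex II feeds electrons from succinate without pumping, and complex V uses the proton gradient to make ATP. Complex II is encoded by nuclear genes alone, whereas the other complexes join nuclear subunits to a core made inside the organelle from mitochondrial messenger RNA. White fat cells hold fewer mitochondria than brown fat or muscle, and several complex IV subunits have forms that are used mainly in muscle, brown fat, lung or testis.

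The libraries held 25378046 to 42422890 counts, so that 3 counts, the most that a 0 leaves room for, equal 0.0707 to 0.118 CPM (counts divided by the library total and scaled up). The tissue label was checked against 17 markers of white fat cells, which summed to 0.098% of counts in the control library, 0.06% and 5.04% in diabetes 1 and 2, and 0.571% and 0.0449% in curcumin-treated 1 and 2. Adipoq, the fat cell hormone adiponectin, was at 15.1, 1.34, 1610, 180 and 1.41 CPM in that order, and Pparg and Retn had no count in diabetes 1. A list of 18 markers of the epithelium of the epididymis, the duct in which sperm mature, took 8.83% of counts in the control library, 8.39% and 0.00159% in the diabetic libraries and 0.679% and 12.9% in the curcumin-treated libraries, with 13 of the 18 at 0 in diabetes 2. In curcumin-treated 1 most of that share was Crisp1 (5965 CPM, beside 2610 CPM in the control library) and Defb42 (670 CPM). Each of the other markers was at 65.9 CPM or less there, among them Gpx5 at 19.6 CPM, beside 29812 CPM in the control library. Smooth muscle markers, 10 in all and none of them at 0 in any library, took 5.1% in curcumin-treated 1 and 0.123% to 0.28% in the other libraries. Diabetes 2 and curcumin-treated 1 therefore stood apart from the other libraries, and from each other, in these markers, and the part of that in the results below was not tested. In bulk RNA, fewer cells of a type and less RNA per cell cannot be told apart.

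Read sharing limits which of these genes can be measured, so the sequences involved are shown first. A block of mouse chromosome 1 in the GRCm38 build, chr1:24611535-24616197, holds copies of mitochondrial genes that GENCODE M21 annotates as pseudogenes on the minus strand. Over their whole length the copies of mt-Co2 (681 bases), mt-Atp6 (678 bases), mt-Co3 (783 bases) and mt-Nd4l (294 bases) were identical to the mitochondrial genes, as was the copy of the first 876 bases of mt-Nd4. The copy of the last 492 bases of mt-Co1, named Gm29216, was 98.78% identical, and all 6 differences lay near its start, where T1056A, C1057T, A1059G, A1060G, C1062A and A1066T give the mt-Co1 base, its position from 1 at the first base of the gene, and the base of the copy. The copy of mt-Nd3, named Gm28438, was 99.71% identical over 345 bases and differed by T3C alone. The first 60 bases of each copy are shown beside the mitochondrial stretch they match, 5′ to 3′ on the strand of the gene, from GENCODE M21 on GRCm38, with differing bases in capitals.
mt-Co1 (chrM:6381-6440, plus strand): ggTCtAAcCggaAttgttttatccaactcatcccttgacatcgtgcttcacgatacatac
Gm29216 (chr1:24616138-24616197, minus strand): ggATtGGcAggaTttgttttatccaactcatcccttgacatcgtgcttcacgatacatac
mt-Nd3 (chrM:9459-9518, plus strand): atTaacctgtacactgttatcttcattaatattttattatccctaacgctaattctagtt
Gm28438 (chr1:24613060-24613119, minus strand): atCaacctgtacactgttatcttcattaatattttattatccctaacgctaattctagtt

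The deposited counts followed that identity for most of these copies. The copy of mt-Co3, a core subunit of cytochrome c oxidase, had 3390 CPM in the control library, 3099 and 2273 CPM in the diabetic libraries and 4065 and 3564 CPM in the curcumin-treated libraries. The gene itself had 3333, 2970, 2164, 4026 and 3544 CPM in the same order. Gene and copy thus rose and fell together, with a copy over gene ratio of 1.01 to 1.05. That ratio was 0.966 to 1.06 for mt-Co2, 1.04 to 1.22 for mt-Atp6 and 0.915 to 1.09 for mt-Nd4l, and lower for genes with a partial copy, at 0.166 to 0.322 for mt-Nd4 and 0.201 to 0.34 for mt-Co1. Gm28438, the nearly identical copy of mt-Nd3, was listed at 0 in every library. Counts of these 6 genes with counted copies are therefore uncertain by up to the size of the copy, and 9 copies of mitochondrial members on chromosomes 1 and 2 together held 12706 to 15736 CPM.

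Nuclear subunits had the same problem in another form. Cox7c, a small complex IV subunit, had 8.66 CPM in the control library, 5.78 and 14.9 CPM in the diabetic libraries and 13.8 and 12.0 CPM in the curcumin-treated libraries. Gm12338, an intronless copy annotated as a pseudogene on chromosome 11, had 121.5, 131.0, 121.7, 160.3 and 200.2 CPM. More counts therefore lay at the copy than at the gene, in every library. The same held for Atp5l (copy over gene 11.1 to 29.8, Gm10221), Atp5g2 (10.6 to 34.1, Gm10231), Atp5h (6.05 to 16.6, Gm10250), Atp5g1 (4.66 to 6.99, Gm10039), Ndufb4 (3.64 to 11.0, Ndufb4c), Cox5b (3.03 to 5.14, Gm11273, annotated as a coding gene), Ndufs5 (1.31 to 2.66, BC002163) and Ndufa12 (1.52 to 3.2, Gm15920). Among nuclear members with a mean of at least 5 CPM, the 14 that share at least 25% of their 50-base windows with another gene had a median level of 39.8 CPM per kb, against 120.0 CPM per kb for the other 62, and the values of those 14 are uncertain in each comparison that follows.

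**Figure D1:**
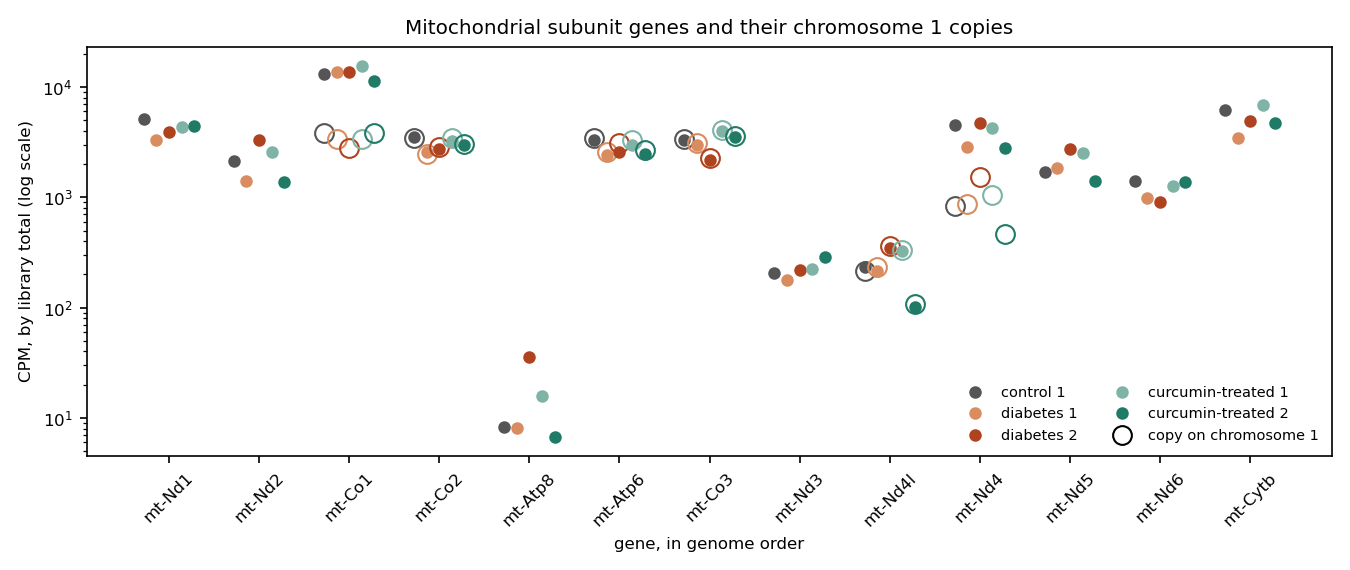
Levels of the 13 mitochondrial subunit genes (filled points) and of their copies on chromosome 1 (open circles), in CPM by library total on a log scale, with genes in genome order and 1 point per library. The circles lie on the points for mt-Co2, mt-Atp6, mt-Co3 and mt-Nd4l, below them for mt-Co1 and mt-Nd4, and the copy of mt-Nd3, listed at 0, is not drawn.

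Subunit genes took 4.42% to 6.17% of each library's counts, most of it from the mitochondrial genome. Nuclear subunits held 0.846% of counts in the control library (95% Wilson interval 0.843% to 0.85%), 0.821% and 1.05% in the diabetic libraries, and 1.35% and 0.997% in the curcumin-treated libraries. The control lay between the diabetic libraries, and diabetes 2 lay above curcumin-treated 2, so the diabetic and curcumin-treated groups overlapped. Their means were 0.935% ± 0.161 (SD, n = 2) and 1.17% ± 0.249 (SD, n = 2), with a two-sided exact permutation p of 0.667, where the smallest p that 2 against 2 libraries allow is 0.333. Mitochondrial subunits held 4.49% in the control library (Wilson interval 4.48% to 4.5%), 3.6% and 4.24% in the diabetic libraries, and 4.83% and 3.68% in the curcumin-treated libraries. These groups overlapped too, at 3.92% ± 0.452 (SD, n = 2) and 4.25% ± 0.813 (SD, n = 2), with an exact permutation p of 0.667. Intervals and limits cover counting error only, since the reads carry no molecular identifiers.

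By complex, the nuclear share of complex I was above both diabetic libraries in both curcumin-treated libraries. It was 0.281% in the control library, 0.247% and 0.307% in the diabetic libraries and 0.433% and 0.386% in the curcumin-treated libraries. Complex III followed the same order with 0.0772%, then 0.0685% and 0.0913%, then 0.131% and 0.0983%. In complex IV both curcumin-treated libraries were also above both diabetic libraries, with 0.239%, then 0.26% and 0.218%, then 0.349% and 0.268%. There diabetes 1 was above diabetes 2 and only just below curcumin-treated 2. In complexes II and V the curcumin-treated libraries were not both above the diabetic ones. Complex II stood at 0.0424% in the control library, 0.0476% and 0.0773% in the diabetic libraries and 0.0696% and 0.0363% in the curcumin-treated libraries, so that diabetes 2 was highest and curcumin-treated 2 lowest. Complex V was near 0.2% in the control library (0.207%), diabetes 1 (0.198%) and curcumin-treated 2 (0.208%), and higher in diabetes 2 (0.355%) and curcumin-treated 1 (0.366%), the libraries that stood apart in their markers.

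**Figure D2:**
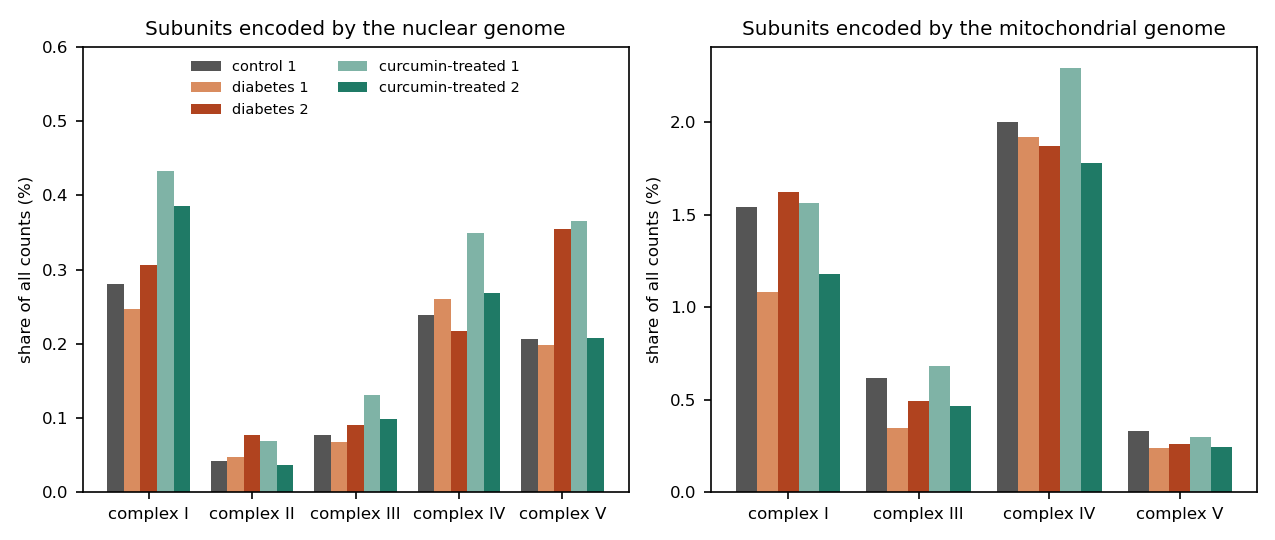
Share of each library's counts (%) in nuclear (left) and mitochondrial (right) subunit genes, by complex, with 1 bar per library and no error bars, since each bar is a single library. In complexes I, III and IV on the left both curcumin-treated bars are above both diabetic bars, while complex II is highest in diabetes 2 at 0.0773%, and no complex on the right has both curcumin-treated bars above both diabetic bars.

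Single genes gave each library a profile of its own. Of the 85 nuclear members with counts, 41 were highest in curcumin-treated 1 and none was lowest there, whereas 36 were lowest in diabetes 1 and 1 was highest there (Cox7a2l). Diabetes 2 was highest for 21 and lowest for 20, and curcumin-treated 2 was highest for 20 and lowest for 15. Genes highest in diabetes 2 included the catalytic subunits of several complexes. Atp5b, the catalytic beta subunit of ATP synthase, had 311.8 CPM in the control library, 431.6 and 1152 CPM in the diabetic libraries and 874.1 and 195.3 CPM in the curcumin-treated libraries. Diabetes 2 and curcumin-treated 1 were both above the other libraries. Its partner Atp5a1, the alpha subunit, had 398.0 CPM, then 439.2 and 853.3 CPM, then 781.4 and 345.5 CPM, with the same order of libraries. Ndufs1, the largest iron-sulphur subunit of complex I, had 31.9 CPM, then 32.4 and 93.7 CPM, then 64.5 and 28.5 CPM, again with the same order at the top.

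Other nuclear members were lowest in diabetes 2. Cox6c, a regulatory subunit of complex IV, had 345.5 CPM in the control library, 396.1 and 139.0 CPM in the diabetic libraries and 493.6 and 414.2 CPM in the curcumin-treated libraries. Cox7a2l, a member of the Cox7a family that takes part in joining complexes III and IV, had 310.4 CPM, then 462.4 and 134.9 CPM, then 201.9 and 309.4 CPM. The diabetic libraries were thus the highest and the lowest of all for this gene. Cox4i1, the subunit with the highest mean level of complex IV (687.4 CPM), varied less, at 640.4 CPM, then 793.6 and 534.4 CPM, then 808.7 and 659.9 CPM.

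**Figure D3:**
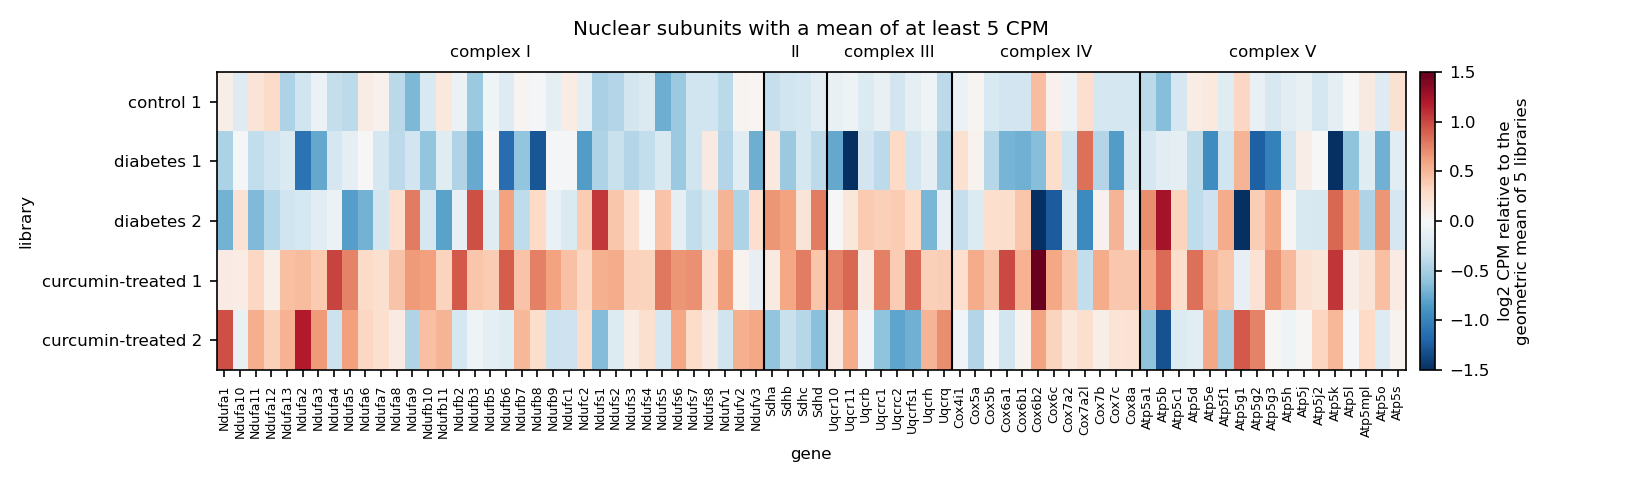
Nuclear subunits with a mean of at least 5 CPM, ordered by complex and name, in the 5 libraries; colour gives log2 CPM relative to the geometric mean of the 5 libraries, and is capped at 1.5 either way. Curcumin-treated 1 is mostly red, diabetes 1 mostly blue, and diabetes 2 has both, with red for Sdha, Ndufs1, Atp5a1 and Atp5b and blue for Cox6c, Cox7a2l and Atp5g1.

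Curcumin-treated against untreated diabetes asks what the treatment changed within the same model. No subunit passed an adjusted p of 0.05 (edgeR quasi-likelihood test, Benjamini-Hochberg over all 29855 genes tested, two-sided), beside 0.0% of all genes. Without adjustment, 0 of 98 subunits and 369 of all genes were under 0.05, DESeq2 called 0 subunits and 0.318% of all genes, and limma-voom called none of either. The fitted log2 fold change had a median of 0.32 over the 85 nuclear members, 63 of them above 0, and of 0.05 over all genes. The median was 0.47 for complex I (31 of 36 above 0), -0.21 for complex II (1 of 4), 0.14 for complex III (6 of 9), 0.28 for complex IV (14 of 19) and 0.32 for complex V (11 of 17). For the 13 mitochondrial members it was 0.11, with 7 above 0.

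Both curcumin-treated libraries were above both diabetic libraries, in CPM, for 32 of the 85 nuclear members (37.6%), beside 17.9% of all genes. Both were below for 1 member, Sdha, beside 9.72% of all genes. The 32 comprised 16 of the 36 complex I genes, none of complex II, 4 of 9 in complex III, 7 of 19 in complex IV and 5 of 17 in complex V. When single libraries were left out, both shares came near those of all genes only without diabetes 1. In that setting 39 nuclear members (45.9%) were above, beside 42.3% of all genes, and 21 (24.7%) below, beside 28.5%. Without curcumin-treated 1, 35 were above (41.2%, beside 31.3%) and 21 below (24.7%, beside 23.1%), so the share below was again near that of all genes. Without diabetes 2, the counts were 57 above (67.1%, beside 36.3%) and 3 below (3.53%, beside 33.3%), and without curcumin-treated 2 they were 59 above (69.4%, beside 34.4%) and 1 below (1.18%, beside 16.3%). Between diabetes 1 and curcumin-treated 2 alone, both of which carry the epididymal markers, 58 nuclear members (68.2%) were higher with curcumin, beside 48.6% of all genes, and 27 (31.8%) lower, beside 47.7%.

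Several of the members whose groups did not overlap encode short accessory subunits. Ndufa5, an accessory subunit of the matrix arm of complex I with the smallest p of that complex, had 46.8 CPM in the control library, 56.0 and 34.8 CPM in the diabetic libraries and 103.0 and 94.3 CPM in the curcumin-treated libraries. The curcumin-treated libraries were above all others, with a fitted log2 fold change of 1.13 (SE 0.53) and an edgeR adjusted p of 1. Ndufa2, another accessory subunit of complex I, had 116.0 CPM, then 66.1 and 118.8 CPM, then 198.4 and 323.9 CPM. Ndufa1, a membrane subunit of complex I encoded on the X chromosome, had 101.8 CPM, then 69.2 and 58.6 CPM, then 104.5 and 187.5 CPM. For Ndufa1 the control was close to curcumin-treated 1, and both diabetic libraries were below it. Uqcr11, a small subunit of complex III, had 68.3 CPM, then 25.5 and 81.3 CPM, then 131.3 and 106.1 CPM. Its fold change was 1.08 on the log2 scale (SE 0.76, edgeR adjusted p of 1). Atp5e, the epsilon subunit in the central stalk of ATP synthase, had 186.0 CPM, then 88.2 and 134.9 CPM, then 238.7 and 251.2 CPM. The groups did not overlap, and the fitted log2 fold change was 1.11 (SE 0.67, edgeR adjusted p of 1).

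Sdha was the exception in direction. This flavoprotein, the catalytic subunit of complex II and also a citric acid cycle enzyme, had 183.3 CPM in the control library, 257.6 and 368.5 CPM in the diabetic libraries and 256.3 and 154.2 CPM in the curcumin-treated libraries. Diabetes 1 was only just above curcumin-treated 1, and the control lay between the curcumin-treated libraries. Its fitted log2 fold change was -0.66 (SE 0.71, edgeR adjusted p of 1). Sdhb, the iron-sulphur subunit, had 74.8 CPM, then 62.5 and 139.5 CPM, then 137.4 and 72.7 CPM, and Sdhd, a membrane anchor, had 69.1 CPM, then 59.4 and 132.9 CPM, then 104.0 and 50.2 CPM. Both were highest in diabetes 2, with curcumin-treated 1 next. Sdhc, the other anchor, was highest in curcumin-treated 1 at 198.4 CPM, beside 96.7 CPM in the control library, 96.3 and 132.2 CPM in the diabetic libraries and 86.1 CPM in curcumin-treated 2.

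Transcript length moved with these differences. Across 76 nuclear members of at least 5 CPM, the log2 ratio of mean CPM (with 0.1 added) between curcumin-treated and diabetic libraries had a Spearman correlation of -0.51 with the length of the transcript, beside -0.229 across 11754 protein-coding genes; genes share libraries and are not independent replicates. The 30 of these members with both curcumin-treated libraries above both diabetic libraries had a median transcript of 0.641 kb, and the other 46 one of 1.03 kb. Atp5e (0.421 kb), Ndufa1 (0.419 kb) and Uqcr11 (0.445 kb) are examples of the first set, Ndufs1 (2.66 kb), Sdha (2.9 kb) and Atp5b (1.92 kb) of the second. Against the control library, the correlation with length was 0.48 in diabetes 1 and -0.404 in curcumin-treated 2 (all genes 0.13 and -0.253), and 0.215 and 0.0668 in diabetes 2 and curcumin-treated 1. The part of length in the counts above was not tested.

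Diabetes against control compares the untreated model with the single chow-fed library, which was assumed to vary like the replicated groups. With edgeR, 0 subunits passed an adjusted p of 0.05, beside 0.0% of all genes, and 0 subunits and 120 genes were under 0.05 without adjustment. The median fitted log2 fold change was 0.24 over nuclear members (55 of 85 above 0), 0.07 over all genes and -0.07 over mitochondrial members. All 4 complex II genes were above 0, with a median of 0.64, although in diabetes 1 only Sdha was above the control in CPM. Both diabetic libraries were above the control for 19 nuclear members (22.4%, beside 17.3% of all genes) and below it for 23 (27.1%, beside 34.5%). The median rested on diabetes 2, since without that library it was -0.11. By complex, the smallest p belonged to Ndufa9, an accessory complex I subunit (fitted log2 fold change 1.2, SE 0.88), Sdha (0.94, SE 0.91), Uqcrc2, a core subunit of complex III (0.77, SE 0.77), Cox8b (described below) and Atp5b (1.54, SE 1.46), all with an edgeR adjusted p of 1.

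Curcumin-treated against control, which uses the same control library, also gave 0 subunits past an adjusted p of 0.05 with edgeR, beside 0.0% of all genes. No subunit and 39 genes were under 0.05 without adjustment. The median fitted log2 fold change was 0.6 over nuclear members (79 of 85 above 0), 0.17 over all genes and 0.02 over mitochondrial members. All 36 nuclear complex I genes had a fitted value above 0, from 0.1 to 1.34. Both curcumin-treated libraries were above the control for 56 nuclear members (65.9%, beside 24.6% of all genes) and below it for 4 (4.71%, beside 34.0%). The 56 comprised 28 of 36 in complex I, none in complex II, 5 of 9 in complex III, 14 of 19 in complex IV and 9 of 17 in complex V. The 14 include Cox6a2 and Cox8b, with 2 and 0 counts in the control library, and the pseudogene Cox6c2. Without curcumin-treated 1 the share was 70.6%, beside 39.4% of all genes, and without curcumin-treated 2 it was 90.6%, beside 50.4%; a single control library stands behind each of these values. Ndufs6, a complex I subunit with the smallest p of its complex here, had 34.9 CPM in the control library, 34.9 and 46.6 CPM in the diabetic libraries and 81.2 and 76.4 CPM in the curcumin-treated libraries. Its curcumin-treated libraries were above all others, with a fitted log2 fold change of 1.31 over control (SE 0.69, edgeR adjusted p of 1). Uqcrq, a small subunit of complex III and its highest by mean CPM, had 159.4 CPM, then 143.8 and 191.6 CPM, then 271.4 and 338.5 CPM, with a fitted log2 fold change over control of 1.09 (SE 0.89, edgeR adjusted p of 1). Sdhc (0.66, SE 0.83) and Atp5j2, a membrane subunit of ATP synthase (0.66, SE 0.77), had the smallest p of complexes II and V, with edgeR adjusted p of 1.

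**Figure D4:**
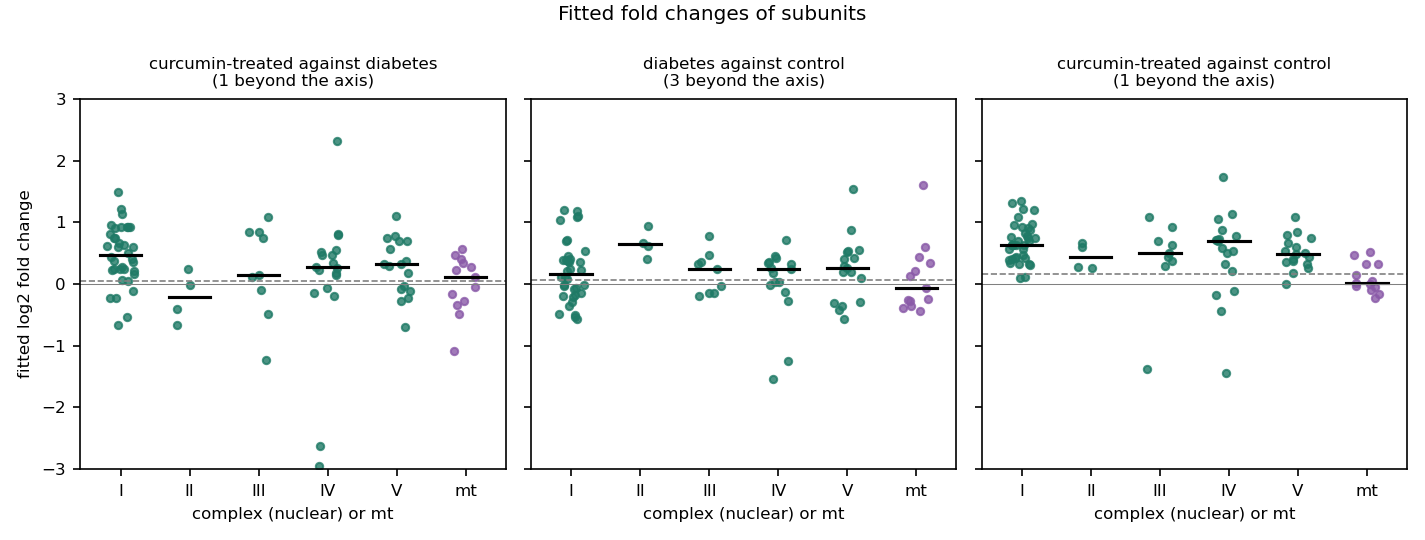
Fitted log2 fold changes (edgeR) of the tested subunits in the 3 comparisons, 1 point per gene, with nuclear members by complex and mitochondrial members (mt) at the right. Short bars are medians, the dashed line is the median of all 29855 genes, and genes beyond 3 either way are left off and counted in the panel title; the complex I median is 0.47, 0.16 and 0.64 from left to right, and no point passed the test.

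The highest mitochondrial share was 1.34 times the lowest, against 1.64 times for the nuclear share. Both shares were highest in curcumin-treated 1 and lowest in diabetes 1. The control lay above diabetes 2 and curcumin-treated 2 in the mitochondrial share and below them in the nuclear share. Mitochondrial over nuclear subunit counts stood at 5.31 in the control library, 4.38 and 4.04 in the diabetic libraries and 3.58 and 3.69 in the curcumin-treated libraries. On the log2 scale these are 2.41, then 2.13 and 2.01, then 1.84 and 1.88. The control was highest and the curcumin-treated libraries lowest, with no overlap between groups. The diabetic mean was 2.07 ± 0.0829 and the curcumin-treated mean 1.86 ± 0.0306 (SD, n = 2 each), a difference of -0.212 with a two-sided exact permutation p of 0.333, the smallest these group sizes allow, so a p under 0.05 could not be reached. The exact permutation p was also 0.333, again the smallest possible, for diabetes against control (-0.335) and curcumin-treated against control (-0.547). With the counts of all pseudogene copies added to both genomes the values were 2.66, then 2.39 and 2.3, then 2.11 and 2.15, in the same order. Without mt-Co1 they were 1.91, then 1.44 and 1.45, then 1.27 and 1.35. Leaving out mt-Nd6 gave 2.36, then 2.09 and 1.98, then 1.8 and 1.83.

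Single complexes did not all share the order of the total. In complex I the log2 ratio was 2.45 in the control library, 2.14 and 2.4 in the diabetic libraries and 1.84 and 1.61 in the curcumin-treated libraries. Complex IV gave 3.07, then 2.89 and 3.09, then 2.72 and 2.73, with both curcumin-treated libraries lowest but diabetes 2 level with the control. In complex III diabetes 1 (2.34) lay below curcumin-treated 1 (2.38), and in complex V the lowest values were those of diabetes 2 (-0.45) and curcumin-treated 1 (-0.3).

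**Figure D5:**
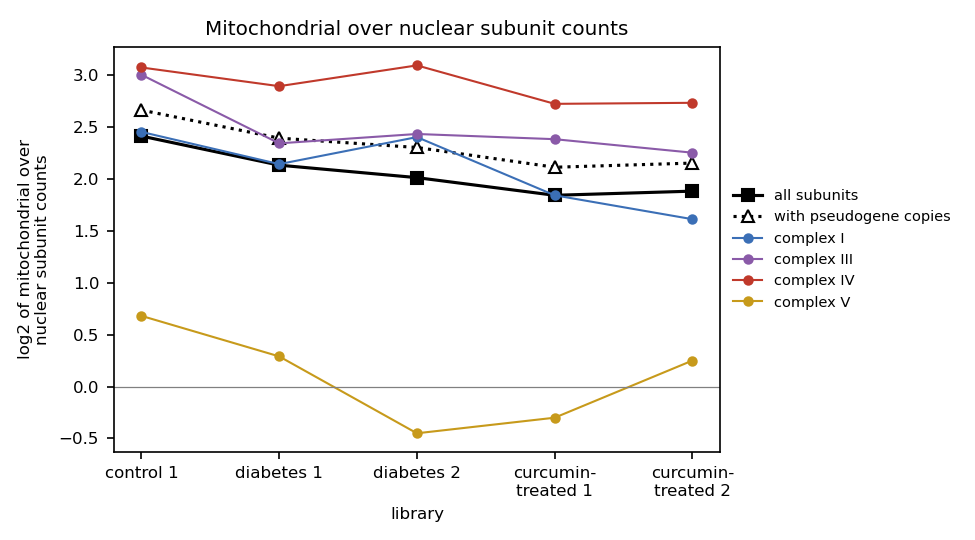
Log2 ratio of mitochondrial to nuclear subunit counts in each library, for all subunits (squares), with pseudogene copies added (triangles) and within each complex that both genomes encode (circles); the lines only join values of the same kind. The ratio over all subunits is 2.41 in the control library, 2.13 and 2.01 in the diabetic libraries and 1.84 and 1.88 in the curcumin-treated libraries, and the ratio of complex V has another order.

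Within the mitochondrial genome, mt-Co1, the catalytic subunit of complex IV, held 29.4% to 38.1% of the counts of the 13 genes. It had 13180 CPM in the control library, 13710 and 13780 CPM in the diabetic libraries and 15640 and 11270 CPM in the curcumin-treated libraries, so the 2 curcumin-treated libraries were the highest and the lowest. Cytochrome b, encoded by mt-Cytb and the single mitochondrial subunit of complex III, had 6190 CPM, then 3475 and 4930 CPM, then 6809 and 4688 CPM, and the copy search found no copy of it. Diabetes 1 was lowest and curcumin-treated 1 highest. Among complex I genes, mt-Nd1 had 5168 CPM, then 3340 and 3898 CPM, then 4375 and 4412 CPM, with both diabetic libraries below both curcumin-treated ones and the control above all. The gene mt-Nd6 is the only subunit gene on the other strand of the mitochondrial genome. Since strand use in counting is not given, its counts cannot be told apart from reads of the opposite strand. With that limit, mt-Nd6 had 1410 CPM, then 987.9 and 912.0 CPM, then 1272 and 1367 CPM, in the same arrangement as mt-Nd1. The other complex I genes differed from that.

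Of those, mt-Nd2 had 2131 CPM in the control library, 1412 and 3310 CPM in the diabetic libraries and 2575 and 1370 CPM in the curcumin-treated libraries. The other members with diabetes 2 highest and curcumin-treated 2 lowest were mt-Nd4 (4749 and 2823 CPM in those libraries), mt-Nd4l (346.6 and 100.8 CPM), mt-Nd5 (2736 and 1420 CPM) and, in complex V, mt-Atp8 (35.8 and 6.67 CPM). For each of these genes the diabetic and curcumin-treated libraries overlapped. The remaining complex I gene, mt-Nd3, ran from 179.8 CPM in diabetes 1 to 285.9 CPM in curcumin-treated 2. Each of mt-Co2 and mt-Atp6 was highest in the control library (3526 and 3321 CPM) and lowest in diabetes 1 (2562 and 2413 CPM). Both curcumin-treated libraries were above both diabetic libraries for 5 of the 13 genes (mt-Nd1, mt-Nd3, mt-Nd6, mt-Co2 and mt-Co3; 38.5%, beside 17.9% of all genes) and below them for none, and the fitted fold changes of the 13 ran from -1.08 to 0.56 on the log2 scale. With TMM factors the 5 became 3 (23.1%, beside 18.1% of all genes). Without diabetes 1, 5 were above (38.5%, beside 42.3%) and 5 below (38.5%, beside 28.5%), and without curcumin-treated 1, 5 were above (38.5%, beside 31.3%) and 6 below (46.2%, beside 23.1%). Without diabetes 2, 7 were above (53.8%, beside 36.3%) and 0 below (beside 33.3%). Without curcumin-treated 2, 8 were above (61.5%, beside 34.4%) and 0 below (beside 16.3%). Against the control, both curcumin-treated libraries were above it for 2 mitochondrial genes (15.4%, beside 24.6% of all genes) and below it for 5 (38.5%, beside 34.0%).

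Subunits with alternative forms were read out as the share of a form in its pair. Cox8b, the form of the smallest complex IV subunit that rodents use in heart, skeletal muscle and brown fat, had no count in the control library or diabetes 1, 247 counts (9.73 CPM) in diabetes 2, 48 counts (1.73 CPM) in curcumin-treated 1 and 4 counts (0.0943 CPM) in curcumin-treated 2. Diabetes 2 was thus at least 87.7-fold higher than the 3 counts that a count of 0 allows in the control library. Cox8b made up 2.54% of Cox8a and Cox8b counts in diabetes 2 (Wilson interval 2.24% to 2.87%), 0.321% in curcumin-treated 1 and 0.0201% in curcumin-treated 2. It was the only subunit that DESeq2 called, with adjusted p of 1.64e-05 for diabetes against control, where DESeq2 called 0.194% of all genes, and 0.00078 for curcumin-treated against control, where it called 0.258%. With the control at 0, the size of the fitted folds is not set by the counts, and in edgeR it depends on the prior count. The edgeR test gave an adjusted p of 1. Cox8a, the form used in most tissues, had 334.9 CPM, then 340.3 and 374.1 CPM, then 536.2 and 468.1 CPM.

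Cox6a2, the heart and skeletal muscle form of Cox6a, had 2 counts in the control library, 0 and 86 in the diabetic libraries, and 11 and 4 in the curcumin-treated libraries, and made up 0.792% of Cox6a1 and Cox6a2 counts in diabetes 2 (Wilson interval 0.642% to 0.977%). Diabetes 2, highest for both muscle forms, also held the highest share of white fat cell markers (5.04%), while markers of skeletal and heart muscle took 0.00424% of counts there and 0.138% in curcumin-treated 1. Cox7a1, the muscle and brown fat form of Cox7a, did not follow, with 2.33 CPM, then 2.24 and 1.65 CPM, then 3.2 and 0.707 CPM. Ucp1, the uncoupling protein that defines brown fat cells, was at 0.636 CPM or less in every library, with no count in diabetes 1. The 8 brown fat markers, which include Cox8b and Cox7a1, summed to 0.00207% to 0.0031% of counts, with diabetes 1 highest. Of the others, Elovl3, a fatty acid elongase, was at 1.54 CPM in diabetes 2 and at 0.144 CPM or less elsewhere, and Cidea, a lipid droplet protein that is also on the white fat list, was at 2.6 CPM in diabetes 2, 11.9 CPM in curcumin-treated 1 and 0.872 CPM or less elsewhere. Dio2, Prdm16 and Ppargc1a were not highest in those 2 libraries. Cox4i2, the form of Cox4 found mainly in lung, made up 0.208% to 0.443% of its pair.

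The forms named for the testis went another way. Cox6b2 had 6.96 CPM in the control library, 3.18 and 1.26 CPM in the diabetic libraries and 14.2 and 7.71 CPM in the curcumin-treated libraries. It was lowest in diabetes 2, with a fitted log2 fold change of 2.31 for curcumin-treated against diabetes (SE 1.01, edgeR adjusted p of 1), the smallest p of complex IV in that comparison. Its share of Cox6b1 and Cox6b2 counts was 4.35%, then 2.75% and 0.506%, then 5.1% and 3.87%. Cox8c had 0.777 CPM, then 0 and 0.0394 CPM, then 0.144 and 0.849 CPM. Cox7b2 had 0.444 CPM, then 0.354 and 0 CPM, then 0.036 and 0.236 CPM. The sperm protein gene Prm2 stood at 57.1 CPM, then 56.4 and 0.315 CPM, then 0.108 and 59.6 CPM, and the list of 10 spermatogenic markers at 0.0201%, then 0.0184% and 0.000185%, then 0.000133% and 0.0219%. Cox6b2 was highest in curcumin-treated 1, where that list was lowest. Cox7b2, with 12 counts or fewer in each library, was instead higher in the libraries where that list was higher. The same held for Cox8c except in diabetes 1, where it had no count. The genes for the ring of ATP synthase, Atp5g1 to Atp5g3, encode the same mature protein. Atp5g3 had 174.9 CPM, then 102.2 and 305.8 CPM, then 330.8 and 209.3 CPM, while Atp5g1 was lowest in diabetes 2, with 38.9 CPM, then 44.8 and 10.2 CPM, then 28.8 and 59.5 CPM. Reads of Atp5g1 and Atp5g2 are shared with the copies named above.

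Promoters of 66 nuclear members, 250 bases before to 50 after the start of the gene, were found in the RefSeq table for GRCm38.p6. The half-site of NRF1, a factor known to bind respiratory chain promoters, was searched as GCATGCG on both strands and found in 11 of 66 (16.7%), beside 4.01% of all 27025 promoters and 4.96% of the 17492 of protein-coding genes. The core bound by ETS factors such as GABPA was searched as CCGGAAG on both strands and found in 16 of 66 (24.2%), beside 9.93% and 12.9%, and 6 members held both. These matches are a description of the letters only. The promoters of Cox6a1, which holds both, of Cox8a and of Cox8b, which holds neither, are shown because these genes are the common and restricted forms described above, with matches on either strand in capitals. In Cox6a1 the capitals hold an NRF1 half-site on each strand, overlapping, and an ETS core read on the other strand, and in Cox8a a pair of ETS cores read on the other strand.
Cox6a1 (chr5:115348909-115349208, minus strand): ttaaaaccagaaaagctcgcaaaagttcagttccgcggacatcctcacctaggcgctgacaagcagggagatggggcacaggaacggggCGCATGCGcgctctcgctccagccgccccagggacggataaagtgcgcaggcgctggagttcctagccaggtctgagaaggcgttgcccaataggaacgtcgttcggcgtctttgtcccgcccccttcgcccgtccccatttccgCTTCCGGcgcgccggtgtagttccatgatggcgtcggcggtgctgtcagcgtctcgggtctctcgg
Cox8a (chr19:7217567-7217866, minus strand): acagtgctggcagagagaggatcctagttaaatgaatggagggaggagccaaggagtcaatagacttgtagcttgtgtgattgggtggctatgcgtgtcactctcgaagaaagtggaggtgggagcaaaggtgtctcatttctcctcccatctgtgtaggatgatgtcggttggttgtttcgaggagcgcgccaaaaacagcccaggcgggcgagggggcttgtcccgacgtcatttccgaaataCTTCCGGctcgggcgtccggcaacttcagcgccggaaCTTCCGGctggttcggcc
Cox8b (chr7:140900397-140900696, minus strand): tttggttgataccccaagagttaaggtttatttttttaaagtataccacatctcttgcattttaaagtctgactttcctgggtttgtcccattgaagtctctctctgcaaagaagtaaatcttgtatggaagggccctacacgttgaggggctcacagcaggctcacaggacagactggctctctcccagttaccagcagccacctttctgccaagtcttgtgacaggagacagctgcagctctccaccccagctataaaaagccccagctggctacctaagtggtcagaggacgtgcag

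Genes around the complexes were read from lists of other mitochondrial functions. None passed an adjusted p of 0.05 with edgeR in any comparison. Of 47 assembly factors tested, 25 had a fitted value above 0 for curcumin-treated against diabetes (median log2 0.05), 30 for diabetes against control (0.35) and 40 for curcumin-treated against control (0.46). Uqcc3, a complex III assembly factor with the smallest p of that list, had 36.8 CPM in the control library, 34.4 and 28.7 CPM in the diabetic libraries and 57.3 and 83.5 CPM in the curcumin-treated libraries. Uqcc2, which acts at the same complex, had 52.0 and 63.7 CPM in the curcumin-treated libraries and 31.8 CPM or less in the others, and Acad9, a complex I assembly factor, had 26.0 CPM, then 34.9 and 57.4 CPM, then 24.7 and 19.8 CPM. The first pair had both curcumin-treated libraries on top, and Acad9 had them at the bottom.

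The 14 citric acid cycle genes all had a fitted value below 0 for curcumin-treated against diabetes (median log2 -0.48) and above 0 for diabetes against control (median 0.84). Diabetes 2 was highest: the 14 genes took 0.126% of counts in the control library, 0.139% and 0.292% in the diabetic libraries and 0.207% and 0.111% in the curcumin-treated libraries, the order of libraries seen for Atp5b. Idh3a, a subunit of isocitrate dehydrogenase, had 36.9 CPM, then 30.8 and 265.0 CPM, then 64.4 and 27.7 CPM. Among regulators of mitochondrial genes, the coactivator Ppargc1a had 3.89 CPM, then 8.6 and 3.82 CPM, then 2.01 and 2.48 CPM, and its partner Esrra had 37.5 CPM, then 16.1 and 48.1 CPM, then 86.2 and 45.5 CPM. Ppargc1a was lowest in the curcumin-treated libraries, and Esrra was highest in curcumin-treated 1 and lowest in diabetes 1. Nrf1 ranged from 16.6 to 21.5 CPM, Tfam, which packages the mitochondrial genome and helps transcribe it, was highest in curcumin-treated 1 at 31.7 CPM, beside 24.9 CPM or less elsewhere, and Cycs, the electron carrier cytochrome c, ran from 23.2 CPM in diabetes 1 to 58.9 CPM in diabetes 2. The 14 regulators had median fitted values of -0.09, 0.05 and -0.13 in the 3 comparisons, in the order given above, the 26 genes of mitochondrial genome expression 0.02, 0.18 and 0.15, and the 17 tested of electron carriers and coenzyme Q synthesis -0.11, 0.43 and 0.13.

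Of the subunit genes outside the symbols used, Atpif1, which blocks ATP hydrolysis by the synthase, had 112 CPM in the control library, 96.1 and 46.5 CPM in the diabetic libraries and 132 and 117 CPM in the curcumin-treated libraries. Diabetes 2 was lowest, at the opposite end from its place for Atp5b. Cyc1, the cytochrome c1 of complex III, had 103 CPM, then 60.7 and 150 CPM, then 181 and 85.1 CPM, with curcumin-treated 1 highest and diabetes 2 next. Uqcrc1, a core subunit of the same complex, had those 2 libraries on top as well, at 265.6 and 201.8 CPM, beside 145.3 CPM in the control library, 119.2 CPM for diabetes 1 and 103.1 CPM for curcumin-treated 2. Ndufa4, the member of the complex I list with the highest mean level (190.1 CPM) and now known to be a subunit of complex IV, had 137.9 CPM, then 148.2 and 166.7 CPM, then 356.1 and 141.4 CPM, with curcumin-treated 1 alone above the rest.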

How the data were processed

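RNA of 5 libraries was measured as whole-number counts per gene, which the authors deposited unnormalised in a single table of 78334 genes. Counting was by featureCounts with build GRCm39, and FastQC was also named, per the submitters' processing notes; the kit marks strand and selects poly-A RNA, per the labels' protocols. Not given in the sources used here are the aligner, the annotation and whether strand was used in counting, so overlapping antisense genes cannot be told apart. A symbol was found for 51486 gene IDs (65.7%), and members were taken by symbol. The members and lists were chosen with earlier results of these data known. Levels are CPM by library total. The fits used edgeR 4.0.16 (R 4.3.3, with filterByExpr, TMM, robust quasi-likelihood and a prior count of 0.125). They were run in 1 model of all libraries with 2 residual degrees of freedom and a biological coefficient of variation of 1.07. A check on simulated data required recovery of set changes only at a spread far below that of these data. It therefore cannot show what the fits would detect here. Alternatives were DESeq2 1.42.0, limma-voom 3.58.1, other scalings and filters, a replicate block and left-out libraries. With library totals in place of TMM, the median fold change of all genes moved from 0.17 to 0.03 for curcumin-treated against control. Genes are named if mitochondrial, smallest in p or highest in mean CPM of a complex, alternative forms, or of complex II; from other lists, the smallest p values and 5 set genes. Others (among them Atp5a1, Ndufs1, Ndufa1, Ndufa2, Uqcrc1 and Cox6c) were chosen after their values were seen. Copies were sought as shared 50-base windows, at least 100 of them, between GENCODE M21 transcripts on GRCm38 (the counts use another build). Same-numbered diabetic and curcumin-treated libraries deviated in opposite directions (r = -0.41 over 29855 genes). The main fits did not pair the libraries. Since genes share libraries, this correlation cannot tell whether equal numbers mark shared handling.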

Additional observations from a re-analysis of the deposited data

How the results depend on the processing

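With 1 control and 2 libraries in each other group, no permutation p under 0.05 was possible, and a count of 0 allows up to 0.118 CPM in the shallowest library. Alternatives named here as added were chosen after seeing the data: the crossed replicate numbers, the copies added to both genomes, the ratio without mt-Co1, and counts of non-overlapping members under other library sets or TMM. Of the alternative values of the main results, 186 were classed as the same, 49 as moved in size or number and 8 as reversed in sign. Among those of single genes, 193 were classed as the same and 2 as stronger.

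No alternative but DESeq2 called a subunit; it called 1 (Cox8b, fitted log2 20.96 and 18.27) for diabetes against control and for curcumin-treated against control. The genes called over the whole table, 0 in edgeR, were, for curcumin-treated against diabetes, diabetes against control and curcumin-treated against control in that order, 216, 2 and 13 with no low-count filter (53895 genes), 95, 58 and 77 with DESeq2, and 0 to 43, 0 and 0 to 5 leaving out 1 library. With a replicate block 0 subunits were called, and the nuclear medians were 0.46, 0.14 and 0.48. Crossed replicate numbers called 46, 13 and 7 genes and 0 subunits.

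The nuclear median for curcumin-treated against diabetes ran from 0.18 to 0.72 leaving out 1 library, and for diabetes against control from -0.11 to 0.5, below 0 without diabetes 2. The mitochondrial median for curcumin-treated against diabetes ran from -0.03 to 0.44, below 0 without diabetes 1. For diabetes against control it ran from -0.42 to 0.3, above 0 without diabetes 1, and was -0.25 with library totals. For curcumin-treated against control it was 0.02 and changed sign with DESeq2 size factors (-0.03), library totals (-0.11), DESeq2 (-0.03) and the replicate block (-0.06), and ran from -0.02 to 0.15 leaving out 1 library. The cause was not tested.

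Counts of members whose libraries do not overlap also moved when 1 library was left out. For curcumin-treated against diabetes they were 35 to 59 nuclear members higher and 1 to 21 lower, and 5 to 8 mitochondrial members higher and 0 to 6 lower, beside 31.3% to 42.3% of all genes higher and 16.3% to 33.3% lower. For diabetes against control they were 27 to 54 nuclear members higher and 31 to 57 lower, and 2 to 7 mitochondrial members higher and 6 to 11 lower, beside 39.6% to 40.8% of all genes higher and 52.4% to 54.9% lower. For curcumin-treated against control they were 60 to 77 nuclear members higher and 8 to 25 lower, and 2 to 8 mitochondrial members higher and 5 to 11 lower, beside 39.4% to 50.4% of all genes higher and 46.9% to 56.7% lower.
With TMM factors, 3 mitochondrial members (23.1%) were higher for curcumin-treated against diabetes, beside 18.1% of all genes. For curcumin-treated against control, 2 nuclear (2.35%) and 2 mitochondrial members (15.4%) were lower with these factors, beside 28.1%. Without both diabetes 2 and curcumin-treated 1, 58 nuclear (68.2%) and 7 mitochondrial members (53.8%) were higher with curcumin, beside 48.6% of all genes. In the same setting 27 nuclear (31.8%) and 6 mitochondrial members (46.2%) were lower, beside 47.7%. With the copies added, the mitochondrial share was 6.01% for control, 5.21% for diabetes and 5.73% for curcumin-treated, and the log2 ratio of mitochondrial to nuclear counts 2.66, 2.34 and 2.13; without mt-Co1 that ratio was 1.91, 1.44 and 1.31.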
